A study of Mus musculus with 7 samples.

Results

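Islet RNA of 7 samples was examined for 49 genes of fatty acid synthesis and fatty acid oxidation, among 22911 genes named on the arrays. The genes were listed by their place in the pathway, with earlier results of these data known. The list holds 17 genes that make, elongate or desaturate fatty acids, 24 genes that carry fatty acids into mitochondria or oxidise them in mitochondria and peroxisomes, and 8 genes that serve both arms or regulate them. Each gene was represented by its brightest probe over all arrays. The mice of the 3 control samples carried homozygous floxed Wnt4 alleles (Wnt4 fl/fl) and lacked the Pdx1CreER transgene. The mice of the 4 Wnt4βKO samples carried the same alleles together with Pdx1CreER, a Cre recombinase driven by the Pdx1 promoter and activated by tamoxifen. Both groups received tamoxifen by gavage at 4-5 weeks of age, and islets were collected at 7 weeks. Per the study's methods the mice were males, the controls were littermates, and islets were picked by hand and cultured. The methods do not state whether islets of several mice were pooled for a sample. The Pdx1 promoter is active in β-cells, and the study counts non-β endocrine cells among those not targeted. Deletion by cell type was not measured here. No control carried the transgene, so effects of activated Cre and of Wnt4 loss cannot be told apart here. A further control sample was left out by the authors for quality.

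Fatty acid synthesis starts in the cytosol from citrate that leaves the mitochondrion. ATP-citrate lyase (Acly) cleaves it to acetyl-CoA, acetyl-CoA carboxylase (Acaca) makes malonyl-CoA, and fatty acid synthase (Fasn) builds palmitate, which elongases and desaturases then lengthen and unsaturate. Oxidation runs the other way: carnitine palmitoyltransferases and a carrier bring acyl groups into the mitochondrion, where dehydrogenases, hydratases and thiolases shorten them and pass electrons to the respiratory chain. Malonyl-CoA blocks the carnitine step, so that the arms do not run together. In β-cells this switch is known for coupling glucose supply to insulin secretion.

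Of the 49 genes, 47 were clearly above background on 3 or more of the 7 arrays and were tested. Acsl3, a long-chain acyl-CoA synthetase, and Cpt1b, the muscle form of carnitine palmitoyltransferase 1, were above background on no array. None of the 47 genes passed the Benjamini-Hochberg adjusted limma p of 0.05, against 0.022% of the 13648 genes tested. The lowest adjusted limma p among them was 0.494. At the study's own threshold, an unadjusted limma p of 0.05, 1 gene was higher and 3 were lower in Wnt4βKO islets. The background in all tested genes was 4.52% higher and 4.43% lower. In both directions together, 8.51% of the tested members passed, beside 8.95% of all tested genes. The genes below this threshold were Slc25a1, which was higher, and Scd2, Etfa and Ehhadh, which were lower. All values are log2 intensities after background correction and quantile normalisation, and differences are Wnt4βKO minus control. Islet RNA comes from many cells, so fewer cells of a type and less RNA per cell cannot be told apart.

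Some facts of the whole series bear on these values. The Wnt4 probe was 71.3% of the control level in Wnt4βKO islets (log2 fold change -0.49 ± 0.17 SE, n = 3 and 4, unadjusted limma p of 0.0232), and the groups overlapped. Whether that probe lies in the deleted part was not determined. The β-cell transcripts Ins1, Ins2, Iapp and G6pc2 were well above background on all 7 arrays. Of 10 tested β-cell markers, 4 read lower and 6 higher, and Slc2a2 alone passed after adjustment. It was 34.5% of the control level (log2 fold change -1.54 ± 0.10 SE, adjusted limma p of 0.00877), without overlap. Ins1 was higher by 0.29 ± 0.10 (SE, unadjusted limma p of 0.02), also without overlap. The mean of 12 acinar markers (digestive enzymes and their regulators) ran from 13.73 to 14.03 in controls and from 12.89 to 13.72 in Wnt4βKO arrays, without overlap, and 2 of the 12 were lower at an unadjusted limma p under 0.05, with none higher. Of 8 adipocyte markers, 3 were tested. Adipoq, Plin1 and Retn were above background on no array. The mean of the tested adipocyte markers was highest in control replicate 3, at 7.45, and lay between 6.41 and 7.07 on the other 6 arrays. Of these markers only Cfd stood out there, at 7.77 against 5.77 to 6.29 on the other 6 arrays. Cfd was above background on only 3 arrays. Lep read 6.27 in control replicate 3, below the other controls at 6.32 and 6.45. Fabp4 read 8.32 there and 8.34 in Wnt4βKO replicate 4. Each marker mean was added to the fit as an alternative, but this does not estimate the part of acinar or adipocyte RNA in the differences. The acinar mean was itself separate between the groups. With it in the fit, acinar content and genotype cannot be told apart, whether a difference shrinks or grows.

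**Figure D1:**
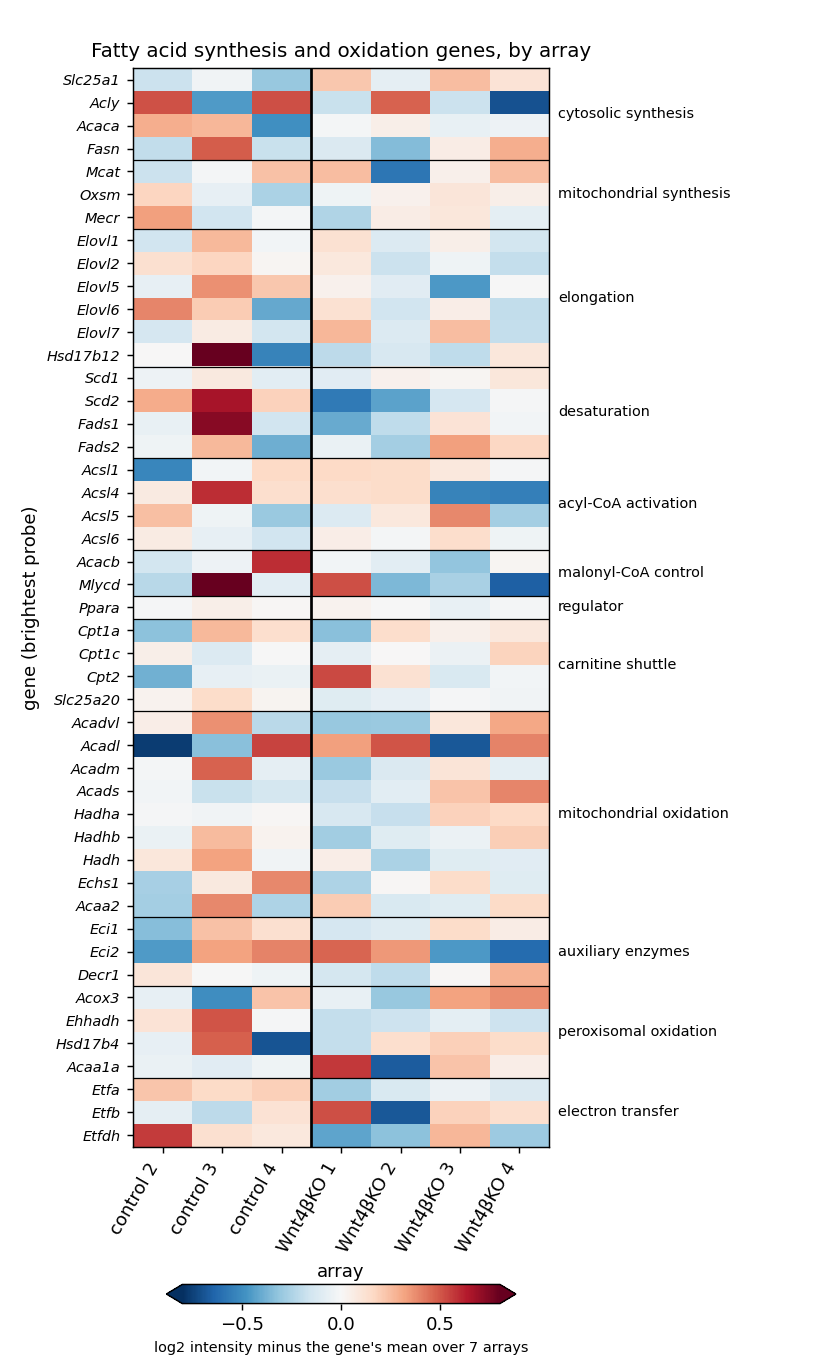
Normalised log2 intensity of the 47 tested genes on each of the 7 arrays, after subtraction of each gene's mean over the arrays (colour scale, clipped at ±0.8), with genes grouped by pathway step and arrays by group. Control replicate 3 holds the highest value of 20 of the 47 genes, and the lower level in all 4 Wnt4βKO arrays is visible in the rows of Scd2, Ehhadh and Etfa.

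Among the desaturases, Scd2 gave the largest difference of the 47 genes. Scd2 is a stearoyl-CoA desaturase, which puts the first double bond into saturated fatty acids. The controls, always given in the order of replicates 2, 3 and 4, read 9.66, 10.02 and 9.54 for Scd2. The Wnt4βKO arrays, in the order of replicates 1 to 4, read 8.80, 8.93, 9.23 and 9.35. Every Wnt4βKO array lay below every control array. The difference was -0.66 ± 0.17 (SE), or 63.2% of the control level, with a 95% interval from -1.06 to -0.26 (unadjusted limma p of 0.0054 and adjusted p of 0.527). Groups did not overlap, downward, for 4 of the 47 members and for 4.13% of all tested genes. Upward this held for none of the members and for 4.23% of all tested genes. Scd2 has a single tested probe. It stayed lower, with an unadjusted limma p below 0.05, in all 21 other settings of the processing, where its difference ranged from -0.76 to -0.52. With the acinar mean in the fit it was -0.61 (unadjusted limma p of 0.0466). Within row 1 of the slide it was -0.68 (1 control and 2 Wnt4βKO arrays), and within row 2 it was -0.55 (2 and 2 arrays).

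The other desaturases gave smaller differences. The probe for Scd1, the related enzyme of liver and fat, was well above background on only 3 arrays. Scd1 read 5.86, 5.98 and 5.82 in controls and 5.81, 5.94, 5.92 and 5.99 in Wnt4βKO islets, so the groups overlapped fully near the floor of the scale (log2 fold change 0.03 ± 0.08 SE). Fads1, the delta-5 desaturase of polyunsaturated fatty acids, read 6.66, 7.44 and 6.57 in controls and 6.31, 6.51, 6.83 and 6.69 in Wnt4βKO islets. Control replicate 3 stood above all others for Fads1, and the difference moved from -0.30 ± 0.23 (SE) to -0.02 without it. Fads2, the delta-6 desaturase, differed by 0.10 ± 0.19 (SE). Further stearoyl-CoA desaturases outside the list, Scd3 and Scd4, differed by -0.02 (unadjusted limma p of 0.926) and 0.20 (0.208).

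In oxidation, Etfa had the lowest unadjusted limma p of the members. Etfa encodes the alpha subunit of the electron transfer flavoprotein, which takes electrons from the acyl-CoA dehydrogenases. It read 9.88, 9.81 and 9.85 in controls and 9.38, 9.53, 9.61 and 9.54 in Wnt4βKO islets. The controls lay close together and above all 4 Wnt4βKO arrays. The difference was -0.33 ± 0.08 (SE), or 79.6% of the control level, with a 95% interval from -0.51 to -0.15 (unadjusted limma p of 0.0033 and adjusted p of 0.494). Its 2 further tested probes also read lower, by 0.13 ± 0.15 and 0.24 ± 0.18 (SE) on the log2 scale, but their groups overlapped. For the mean over its 3 probes the difference was -0.23 (unadjusted limma p of 0.0868). From the scanner's processed signal it was -0.19 (unadjusted limma p of 0.337). Adding the acinar mean to the fit gave -0.23 (unadjusted limma p of 0.0551). The difference was -0.39 within row 1 of the slide and -0.27 within row 2.

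Its partners differed in direction. Etfb, the beta subunit, differed by 0.09 ± 0.26 (SE), and its second probe by 0.06 ± 0.15 (SE). Etfb was 11.43 ± 0.16 (SD, n = 3) in controls and 11.52 ± 0.51 (SD, n = 4) in Wnt4βKO islets, and its highest and lowest values both came from Wnt4βKO arrays, replicates 1 and 2. Etfdh, the dehydrogenase that hands these electrons to ubiquinone, differed by -0.45 ± 0.19 (SE), and its unadjusted limma p of 0.0505 missed the threshold. Etfdh read 8.78, 8.35 and 8.30 in controls and 7.80, 7.89, 8.48 and 7.93 in Wnt4βKO islets. Wnt4βKO replicate 3 lay among the controls, and the other 3 lay below them.

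Ehhadh, the peroxisomal bifunctional enzyme that hydrates and then dehydrogenates enoyl-CoA, was also lower. It read 6.43, 6.83 and 6.31 in controls and 6.13, 6.15, 6.24 and 6.16 in Wnt4βKO islets. The groups did not overlap, and control replicate 3 stood well above the other controls. The difference was -0.35 ± 0.13 (SE), with a 95% interval from -0.64 to -0.06 (unadjusted limma p of 0.0256 and adjusted p of 0.662). Without control replicate 3 it was -0.19 (unadjusted limma p of 0.0537), and within rows 1 and 2 of the slide it was -0.17 and -0.43. The probe is dim, and the size of its difference depended on the background step. It was -0.59 with no background correction, -0.88 at an offset of 0 and -1.24 from the scanner's processed signal. Its unadjusted limma p was 0.0985 with the acinar mean in the fit.

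Slc25a1 was the 1 member above the threshold in the upward direction. It is the carrier that exports citrate from the mitochondrion and so feeds Acly. It read 9.05, 9.20 and 8.92 in controls and 9.45, 9.15, 9.47 and 9.34 in Wnt4βKO islets. Wnt4βKO replicate 2 lay below control replicate 3, so the groups overlapped. The difference was 0.29 ± 0.11 (SE), with a 95% interval from 0.04 to 0.54 (unadjusted limma p of 0.028 and adjusted p of 0.67). A second Slc25a1 probe went the other way, by -0.28 ± 0.22 (SE), and the mean over both probes gave 0.01 (unadjusted limma p of 0.956). On that second probe Wnt4βKO replicate 1 was lowest, at 6.91, and the other 6 arrays lay between 7.58 and 7.96. With the acinar mean in the fit the difference on the brightest probe was 0.19 (unadjusted limma p of 0.234).

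**Figure D2:**
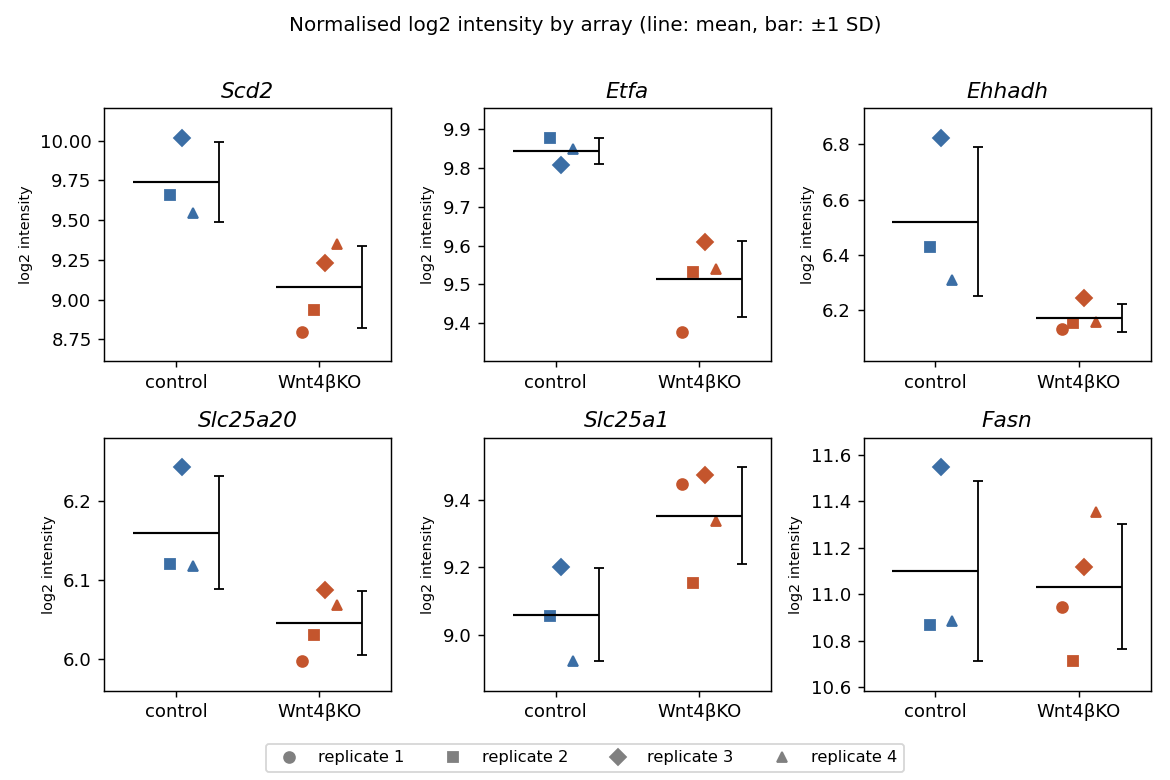
Normalised log2 intensity by array for the genes past the unadjusted limma p of 0.05 or with separate groups (Scd2, Etfa, Ehhadh, Slc25a20, Slc25a1) and for Fasn, with the replicate number as the symbol, the group mean as a line and 1 SD as a bar (n = 3 control, 4 Wnt4βKO). The groups are separate for Scd2, Etfa, Ehhadh and Slc25a20 and overlap for Slc25a1 and Fasn.

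Promoters are shown for the genes past the unadjusted limma p of 0.05, to place them beside known lipid-related motifs. Of these 4 genes, Slc25a1, Ehhadh and Etfa have an entry in the RefSeq-based promoter table (build GRCm38.p6), and Scd2 is named only. Each runs from 250 bases before to 50 bases after the annotated start, 5′ to 3′ on the gene's strand, and capitals mark exact matches on either strand. The motifs were the sterol regulatory element core TCACNCCAC, bound by SREBP factors, the E-box CACGTG, bound by ChREBP and other factors, and the hexamer AGGTCA, which PPAR and other nuclear receptors bind as a repeat. None of these letters overlap among the matches shown. The entries lie at chr16:17928170-17928469 for Slc25a1, chr16:21787785-21788084 for Ehhadh and chr9:55512194-55512493 for Etfa, all on the minus strand.
Slc25a1: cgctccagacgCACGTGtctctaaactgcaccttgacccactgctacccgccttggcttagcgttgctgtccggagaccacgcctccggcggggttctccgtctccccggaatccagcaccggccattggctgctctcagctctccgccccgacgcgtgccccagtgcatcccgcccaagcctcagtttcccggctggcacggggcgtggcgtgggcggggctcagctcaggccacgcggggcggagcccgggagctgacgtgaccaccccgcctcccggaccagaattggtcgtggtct
Ehhadh: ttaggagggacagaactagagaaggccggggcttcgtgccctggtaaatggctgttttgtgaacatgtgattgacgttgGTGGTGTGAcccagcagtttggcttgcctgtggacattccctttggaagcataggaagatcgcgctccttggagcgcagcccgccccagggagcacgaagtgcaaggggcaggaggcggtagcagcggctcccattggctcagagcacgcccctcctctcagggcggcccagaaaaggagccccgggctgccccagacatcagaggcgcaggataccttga
Etfa: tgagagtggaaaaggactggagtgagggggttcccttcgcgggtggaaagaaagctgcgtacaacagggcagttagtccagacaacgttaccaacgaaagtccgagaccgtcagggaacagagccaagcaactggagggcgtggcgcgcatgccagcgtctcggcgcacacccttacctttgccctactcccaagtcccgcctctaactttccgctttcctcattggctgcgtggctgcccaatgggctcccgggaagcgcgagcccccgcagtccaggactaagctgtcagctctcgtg
Slc25a1 holds 1 E-box. Ehhadh holds 1 sterol regulatory element core, read on the opposite strand, and Etfa holds none of the 3 motifs. Over the 48 windows of the 41 members with an entry, the sterol regulatory element core was found in Acsl1 and Ehhadh, in 4.17% of windows beside 1.24% of all 32851 windows. The E-box was found in Elovl5 and Slc25a1, in 4.17% of windows beside 7.15% of all. The hexamer was found in 25.0% of windows beside 16.3% of all. Its 11 genes were Acacb, Acadm, Acadvl, Acly, Acsl6, Cpt1a, Cpt1c, Echs1, Elovl1, Elovl6 and Oxsm. None of these 11 genes passed the unadjusted limma p of 0.05, beside 8.95% of all tested genes. So short a list cannot show a difference from that share. A match describes letters, not binding.

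The core enzymes of cytosolic synthesis gave no difference larger than the spread between arrays. Acly read 12.56, 11.59 and 12.56 in controls and 11.87, 12.51, 11.87 and 11.35 in Wnt4βKO islets (log2 fold change -0.34 ± 0.33 SE). Both groups spanned most of the range, and a dimmer Acly probe gave 0.08 ± 0.29 (SE). Acaca read 8.80, 8.78 and 8.02 in controls and 8.50, 8.56, 8.46 and 8.48 in Wnt4βKO islets (-0.04 ± 0.19 SE). Its Wnt4βKO arrays were tightly grouped, and control replicate 4 lay below all of them. Without control replicate 4 the Acaca difference was -0.29, with an unadjusted limma p of 0.00923. Fasn read 10.87, 11.55 and 10.88 in controls and 10.95, 10.71, 11.12 and 11.35 in Wnt4βKO islets (-0.07 ± 0.21 SE). Its highest array was control replicate 3 and its lowest Wnt4βKO replicate 2. The 95% interval of the Fasn difference ran from -0.56 to 0.43, that of Acly from -1.10 to 0.43 and that of Acaca from -0.48 to 0.40. The mitochondrial synthesis enzymes Mcat, Oxsm and Mecr, which supply the precursor of lipoic acid, differed by -0.03, 0.09 and -0.10.

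Elongation extends palmitate and longer chains, and 5 of its 6 genes read lower, with none past the unadjusted limma p of 0.05. Elovl6, which turns palmitate into stearate, read 7.49, 7.31 and 6.69 in controls and 7.23, 6.95, 7.16 and 6.91 in Wnt4βKO islets (-0.10 ± 0.19 SE). Control replicates held both its highest and its lowest value, and without control replicate 4 its difference was -0.34 (unadjusted limma p of 0.0346). Elovl5, an elongase of polyunsaturated chains, differed by -0.30 ± 0.15 (SE) and Elovl2, which acts on longer polyunsaturated chains, by -0.18 ± 0.09 (SE). Elovl5 read 9.08, 9.51 and 9.36 in controls and 9.18, 9.05, 8.68 and 9.14 in Wnt4βKO islets, and Wnt4βKO replicate 3 was clearly the lowest. Elovl1, an elongase of very long saturated chains, differed by -0.05 ± 0.12 (SE) and Elovl7 by 0.13 ± 0.14 (SE). Hsd17b12, the ketoacyl-CoA reductase of the elongation cycle, had the widest spread among controls, from 7.26 to 8.77, and differed by -0.26 ± 0.32 (SE).

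Activation and malonyl-CoA control stand between the arms. Acyl-CoA synthetases attach CoA to free fatty acids before either fate. Acsl4, which prefers arachidonate, differed by -0.47 ± 0.23 (SE, unadjusted limma p of 0.0792), and its 2 dimmer probes by -0.27 and -0.002. Acsl4 read 7.99, 8.51 and 8.05 in controls and 8.05, 8.06, 7.38 and 7.37 in Wnt4βKO islets. Wnt4βKO replicates 3 and 4 lay below the other 5 arrays, and replicates 1 and 2 lay at the level of the controls. Acsl1, Acsl5 and Acsl6 differed by 0.22, 0.05 and 0.09. Acacb, the mitochondrial acetyl-CoA carboxylase whose malonyl-CoA inhibits the carnitine step, differed by -0.24 ± 0.18 (SE) on its brightest probe and by -0.45 ± 0.17 (SE, unadjusted limma p of 0.032) on a dimmer one. The dimmer probe read 7.04, 6.47 and 6.74 in controls and 5.98, 6.32, 6.43 and 6.48 in Wnt4βKO islets, and Wnt4βKO replicate 4 overlapped control replicate 3. Mlycd, which removes malonyl-CoA, read 7.16, 8.45 and 7.30 in controls and 7.89, 7.02, 7.12 and 6.73 in Wnt4βKO islets (-0.44 ± 0.38 SE). Control replicate 3 was again highest, and without it the difference was -0.03. Ppara, a nuclear receptor that activates oxidation genes, read 6.06, 6.12 and 6.08 in controls and 6.10, 6.07, 6.01 and 6.06 in Wnt4βKO islets (-0.03 ± 0.06 SE). The Ppara probe was dim and its groups overlapped.

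The carnitine shuttle carries long-chain acyl groups through the mitochondrial membranes. Cpt1a, its rate-limiting outer-membrane enzyme, read 8.76, 9.34 and 9.22 in controls and 8.75, 9.23, 9.12 and 9.17 in Wnt4βKO islets (-0.04 ± 0.17 SE). Each group had 1 low array and the others close together. Cpt2, the inner-membrane enzyme, read 9.33, 9.65 and 9.66 in controls and 10.25, 9.84, 9.59 and 9.70 in Wnt4βKO islets (0.30 ± 0.17 SE, unadjusted limma p of 0.122). Wnt4βKO replicate 1 was highest, and a dimmer Cpt2 probe gave -0.22 ± 0.12 (SE). Slc25a20, the carnitine-acylcarnitine carrier, read 6.12, 6.24 and 6.12 in controls and 6.00, 6.03, 6.09 and 6.07 in Wnt4βKO islets. Its groups did not overlap, by a small margin, and the difference was -0.11 ± 0.07 (SE, unadjusted limma p of 0.137). From the scanner's processed signal, which does not compress dim probes, it was -0.63. Cpt1c, the brain form, differed by 0.04 ± 0.09 (SE).

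Mitochondrial oxidation showed 5 genes below 0 and 4 above, with none past the unadjusted limma p of 0.05. Acadm, the medium-chain acyl-CoA dehydrogenase, read 8.05, 8.53 and 7.99 in controls and 7.76, 7.94, 8.17 and 7.98 in Wnt4βKO islets (-0.23 ± 0.16 SE). Acadl, the long-chain dehydrogenase, read 6.69, 7.11 and 7.99 in controls and 7.78, 7.95, 6.77 and 7.84 in Wnt4βKO islets (0.32 ± 0.38 SE). Both groups held high and low Acadl arrays, and its standard error was the largest of the 47 genes. Acads, the short-chain form, differed by 0.20 ± 0.15 (SE) and Acadvl, the very-long-chain form, by -0.12 ± 0.20 (SE). Hadha, the alpha subunit of the trifunctional protein, read 7.73, 7.72 and 7.75 in controls and 7.62, 7.56, 7.93 and 7.91 in Wnt4βKO islets (0.02 ± 0.11 SE). The controls lay within the range of the Wnt4βKO arrays. Hadhb, its thiolase subunit, differed by -0.13 ± 0.13 (SE).

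Hadh, the short-chain hydroxyacyl-CoA dehydrogenase known in β-cells for restraining glutamate dehydrogenase, read 11.90, 12.13 and 11.78 in controls and 11.86, 11.56, 11.72 and 11.72 in Wnt4βKO islets. Of the Wnt4βKO arrays, 3 lay below all controls and replicate 1 lay among them. The Hadh difference was -0.23 ± 0.11 (SE, unadjusted limma p of 0.0777). Adding the acinar mean to the fit gave -0.38, with an unadjusted limma p of 0.0316. Echs1, the enoyl-CoA hydratase, and Acaa2, the thiolase, differed by -0.11 and 0.08. The isomerases and reductase that handle unsaturated chains, Eci1, Eci2 and Decr1, differed by -0.01, -0.15 and -0.03. Eci2 took 2 separate levels that cut across the groups. The controls read 8.69, 9.47 and 9.54 and the Wnt4βKO arrays 9.61, 9.49, 8.69 and 8.53, with no array in between. A dimmer Eci2 probe ran from 7.63 to 8.37 and did not follow that order.

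In peroxisomes, where very long chains are shortened first, Ehhadh was alone in reading lower. Acox3, an acyl-CoA oxidase, differed by 0.20 ± 0.22 (SE), Hsd17b4, the second bifunctional enzyme, by 0.16 ± 0.26 (SE), and Acaa1a, the thiolase, by 0.11 ± 0.26 (SE). A dimmer Acaa1a probe gave -0.46 ± 0.28 (SE). Acaa1a read 11.14, 11.10 and 11.16 in controls and 11.76, 10.53, 11.42 and 11.25 in Wnt4βKO islets, so that the controls lay close together inside the range of the Wnt4βKO arrays.

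**Figure D3:**
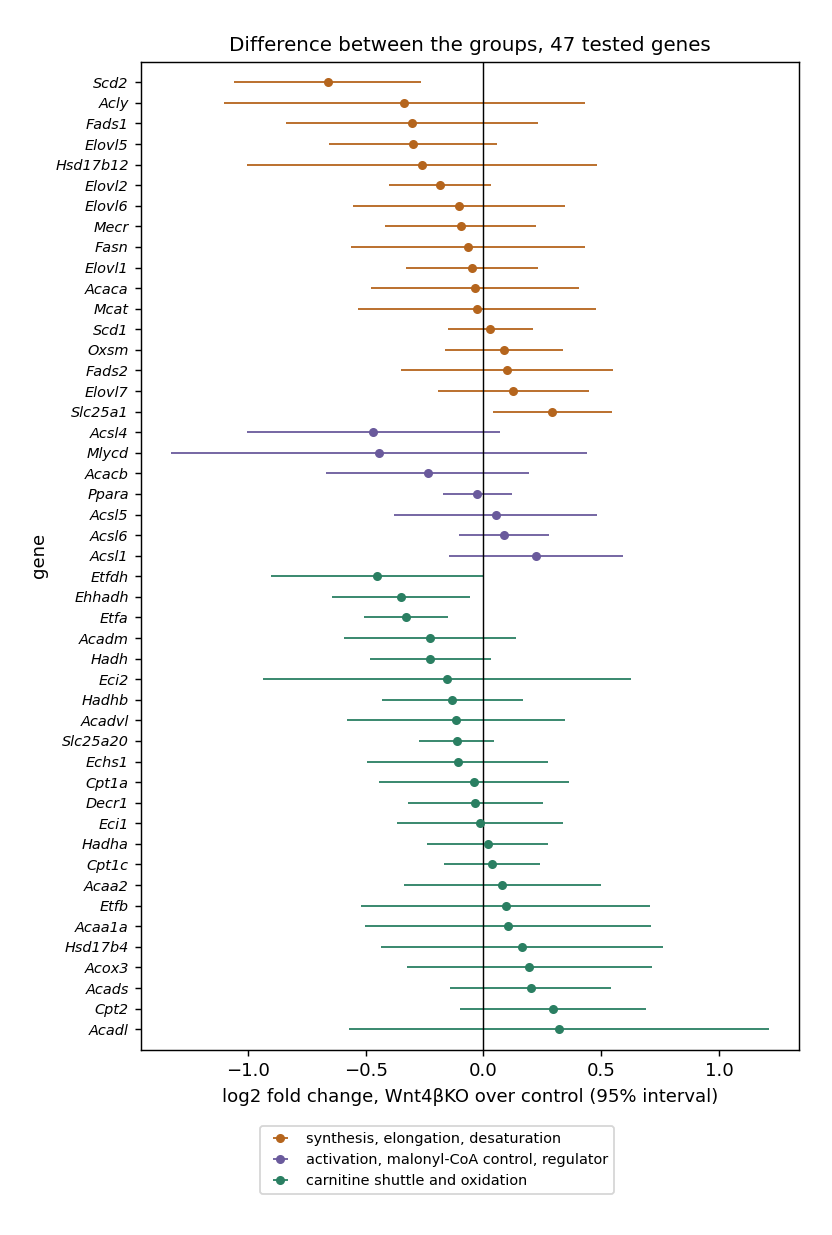
Log2 fold change of the 47 tested genes, Wnt4βKO over control, with its 95% interval from limma, grouped by arm and sorted within each arm. The intervals of Scd2, Etfa, Ehhadh and Slc25a1 exclude 0 before adjustment over all probes, and the points of both arms lie on either side of 0.

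Both opposing arms had medians close to 0. The median log2 fold change was -0.07 over the 17 synthesis genes, of which 12 read lower and 5 higher. It was -0.03 over the 23 tested oxidation genes, of which 13 read lower and 10 higher. The median over all 13648 tested genes was 0.008, and 47.8% of them were below 0, beside 61.7% of the 47 members. Array by array, the median of the gene-centred synthesis values was -0.04, 0.20 and -0.15 in controls and -0.03, -0.11, 0.05 and -0.01 in Wnt4βKO islets. For oxidation it was -0.05, 0.15 and 0.01 in controls and -0.13, -0.12, 0.04 and 0.08 in Wnt4βKO islets. The groups overlapped for both arms. Synthesis minus oxidation was -0.03 ± 0.11 (SD, n = 3) in controls and 0.004 ± 0.08 (SD, n = 4) in Wnt4βKO islets.

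Control replicate 3 weighed on both medians. It held the highest value of 20 of the 47 genes, or 42.6%, beside 17.4% of all tested genes, and the lowest value of only 2. Among these 20 were 7 synthesis and 10 oxidation genes. Wnt4βKO replicate 2 held the highest value of none, beside 8.74% of all tested genes. Without control replicate 3 the median was 0.02 for synthesis and 0.003 for oxidation, and without control replicate 4 it was -0.17 and -0.002. Without Wnt4βKO replicate 2 the oxidation median was 0.02. From the scanner's processed signal it was 0.03, where the median of all tested genes was 0.055.

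**Figure D4:**
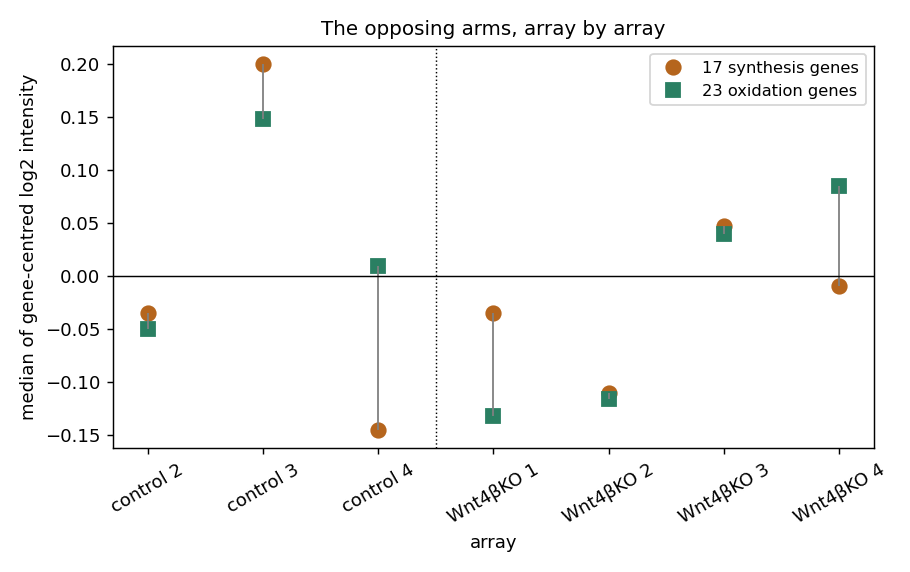
Median of gene-centred log2 intensity on each array for the 17 synthesis genes (circles) and the 23 tested oxidation genes (squares), joined by a line per array. Both arms are highest in control replicate 3, at 0.20 and 0.15, and the control and Wnt4βKO arrays overlap for each arm.

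Different probes for 1 gene did not always read alike. Of 83 probes for the 49 genes, 75 were tested, and 22 genes had more than 1 tested probe. All probes of a gene had the same sign of difference for 14 of these genes and differed in sign for 8, among them Slc25a1, Acly, Cpt2 and Acaa1a. Of the 75 probes, 5 had an unadjusted limma p under 0.05, beside 6.96% of all 26151 tested probes, and none passed after adjustment, beside 0.0153% of all tested probes. The 95% interval lay within ±0.5 log2 units for 20 of the 47 genes and within ±1 for 41.

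Other genes of the pathway were read from lists written by function. Of 55 further lipid enzymes, 51 were tested, with a median of -0.06, and 3 were lower and 1 higher at an unadjusted limma p under 0.05. In both directions this was 7.84% of those tested, beside 8.95% of all tested genes. Elovl4, an elongase of very long chains, read 6.44, 6.28 and 6.29 in controls and 6.08, 6.14, 6.05 and 5.98 in Wnt4βKO islets (-0.27 ± 0.08 SE, unadjusted limma p of 0.00855). Acad11, an acyl-CoA dehydrogenase, read 8.68, 9.11 and 8.69 in controls and 8.42, 8.56, 8.33 and 8.39 in Wnt4βKO islets (-0.40 ± 0.12 SE). For both, all Wnt4βKO arrays lay below all controls. Hacd1, a dehydratase of the elongation cycle, was also separate between the groups, at 7.83 ± 0.13 against 8.18 ± 0.19 (SD, n = 4 and 3). H2-Ke6, a mitochondrial synthesis reductase also called Hsd17b8, was higher by 0.25 ± 0.09 (SE). None of these 4, once the acinar mean was added, had an unadjusted limma p under 0.05.

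Of 25 uptake and storage genes, 22 were tested, with a median of -0.01, and 3 were higher and none lower at the same threshold. The share in both directions was 13.6% of the 22, beside 8.95% of all tested genes, of which 4.52% were higher and 4.43% lower. Fabp3, a cytosolic fatty acid binding protein, read 8.68, 9.31 and 8.70 in controls and 9.60, 9.46, 9.28 and 9.67 in Wnt4βKO islets (0.61 ± 0.18 SE, unadjusted limma p of 0.00991). Wnt4βKO replicate 3 lay just below control replicate 3, and the other 3 lay above all controls. Hilpda, a lipid droplet protein that inhibits triglyceride breakdown, was higher by 0.28 ± 0.10 (SE) without overlap, and Agpat2, an acyltransferase of glycerolipid synthesis, by 0.24 ± 0.10 (SE).

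All 31 regulators on the list were tested, with a median of -0.01, and 2 were higher and 1 lower. These made up 9.68% of the list, beside the same 8.95% of all tested genes. Ppargc1b, a coactivator of mitochondrial and lipid genes, read 6.15, 6.42 and 6.43 in controls and 6.93, 6.62, 6.61 and 6.86 in Wnt4βKO islets (0.42 ± 0.12 SE, unadjusted limma p of 0.00885). Nrf1, a transcription factor of mitochondrial genes, was higher by 0.29 ± 0.12 (SE). Insig2, which holds SREBP precursors in the endoplasmic reticulum, read 8.62, 8.65 and 8.65 in controls and 8.33, 8.46, 8.50 and 8.36 in Wnt4βKO islets (-0.23 ± 0.07 SE). The groups were separate for Ppargc1b and Insig2 and overlapped for Nrf1. Srebf1, the master factor of synthesis, differed by -0.15 (unadjusted limma p of 0.371) and Mlxipl, which encodes ChREBP, by 0.23 (unadjusted limma p of 0.3). With the acinar mean in the fit Fabp3 was 0.40, Ppargc1b 0.18 and Insig2 -0.15, and no uptake gene or regulator named here as higher or lower kept an unadjusted limma p under 0.05. None of the 104 genes tested in these 3 lists passed the adjusted threshold.

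**Figure D5:**
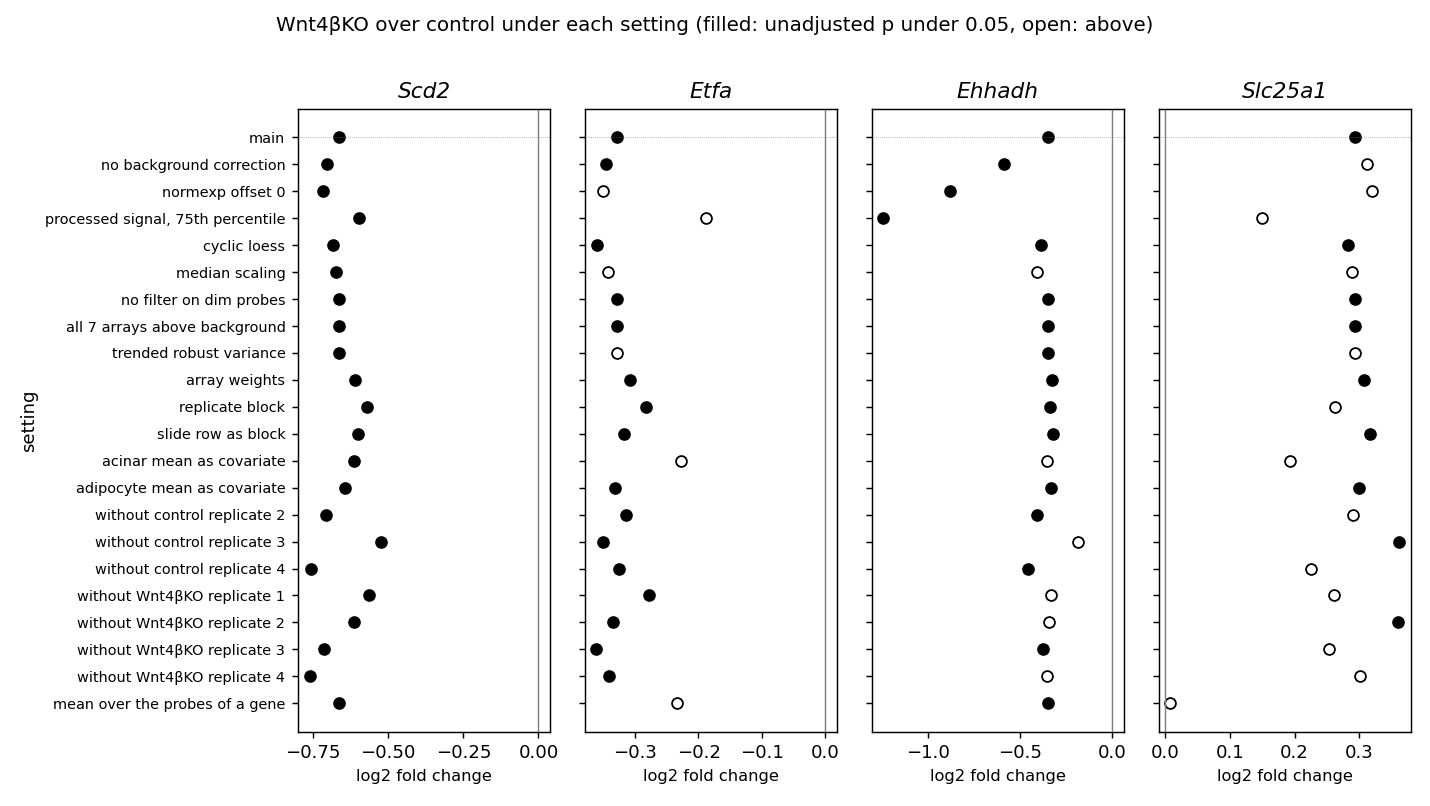
Log2 fold change of Scd2, Etfa, Ehhadh and Slc25a1 under the reported setting (main) and 21 others, with filled circles where the unadjusted limma p was under 0.05 and open circles where it was not. Scd2 is filled throughout, Etfa and Ehhadh in 15 of the 21 other settings and Slc25a1 in 8, and no setting moves any of the 4 across 0.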

How the data were processed

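Islet RNA of 3 control and 4 Wnt4βKO samples was labelled with Cy3, from 50 ng per array per the labels. The authors deposited 1 scanner output per array with spot intensity on a linear scale, not normalised between arrays, made with Agilent Feature Extraction 12.0.1.1 per the file headers. As the study's methods state, the background of the deposited median signal intensity was corrected with normexp at an offset of 50, followed by quantile normalisation of log2 values. The offset compresses the fold changes of dim probes. Control spots were left out, outlier spots were set to missing (65 values among tested probes), and repeated spots were averaged. A probe was tested if it stood well above background on 3 arrays or more (26151 of 56605 probes). The tests were two-sided, from the functions lmFit and eBayes (limma 3.58.1, R 4.3.3), and were adjusted after Benjamini-Hochberg over all tested probes. Between 45.5% and 49.0% of spots were well above background, none was saturated, and the number of arrays limits the precision. All arrays came from 1 slide and 1 scan, in 2 rows of the slide.

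Probes were named through a RefSeq table of assembly GRCm38.p6, which matched 32994 (58.3%) probes to 22911 symbols. The members and lists were chosen with earlier results of these data known. Per-array values are given for members with an unadjusted limma p under 0.05 or separate groups and for 16 core enzymes, of the other lists for at most 6 genes with the lowest p. Values for other members were added for contrast after their values were seen. P-values set the difference between the groups against the spread within them. That spread may be technical, and its sources were not determined. No label says that replicate numbers mark litters. The fit was tested before use on simulated independent values with each probe's own spread. These held no shift shared by the probes of an array, so the test does not cover such shifts. Alternatives changed the background step, the scaling between arrays, the filter on dim probes, the variance model, weights, blocks for replicate number or slide row, the probe rule or a marker covariate, or left out 1 array. A deposited table of log2 values, credited to the authors, was not used, because only 1 of its 7 columns correlated best with the array of its own sample. The correlations were close, from 0.844 to 0.863 for the own column and from 0.846 to 0.863 for the best one. Which deposit holds the right sample order was not determined. Tables and plots used Python 3.11.15, pandas 2.3.3 and matplotlib 3.10.9.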

Additional observations from a re-analysis of the deposited data

Results flagged for a closer look

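The 4 Wnt4βKO values of each of the 47 tested genes, the medians of both arms and their difference, 50 sets in all, were examined for a sample far from the others with Dixon's ratio, the gap over the range. It exceeded the 95% critical value for groups of 4 in 2 sets. Chance gives about 1 in 20, or 2.5 of the 50 sets, so the count is no larger than chance gives. For Acadl, the long-chain acyl-CoA dehydrogenase, the ratio was 0.852, and Wnt4βKO replicate 3 read 6.77 where the others read 7.78 to 7.95. For Hsd17b4, a peroxisomal bifunctional enzyme, the ratio was 0.861, and replicate 1 read 8.28 where the others read 8.61 to 8.66.

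A signal outside the gene probes also differed between the groups. The mean of 5 labelling spike-in and quality control probes, relative to each array's 75th percentile of signal, was higher by 0.80 on the log2 scale in Wnt4βKO islets. It read 1.29, 0.96 and 1.07 in controls and 2.84, 1.87, 1.53 and 1.37 in Wnt4βKO islets, so that all 4 lay above all controls. Its part in the differences of the fatty acid genes was not tested.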

How the results depend on the processing

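The count of genes with an adjusted limma p under 0.05 was 0 in all 21 other settings. The count higher at an unadjusted limma p under 0.05, 1 as reported, was 0 with no background correction, at an offset of 0, with median scaling, with the trended and robust variance, with the acinar covariate, with the mean over probes and with the replicate block, and ranged from 0 to 2 when 1 array was left out. The count lower, 3 as reported, was 5 with the mean over probes and 5 with the replicate block, and ranged from 2 to 7 when 1 array was left out, with 7 without control replicate 4. The difference of the arm medians, -0.03 as reported, ranged from -0.17 to 0.018 when 1 array was left out. Of 604 values of named genes, 470 kept direction and side of the unadjusted threshold, 104 lost it, 7 gained it and 23 changed sign, and none of the sign changes was in a gene called as reported. From the processed signal, Acaca (0.017), Fasn (0.069), Scd1 (-0.048) and Hadha (-0.052) changed sign. Hadha also did with cyclic loess (-0.0031) and median scaling (-0.029), Acaca with the slide row as a block (0.0077), and Acly (0.091), Acaca (0.044), Cpt1a (0.071) and Cpt2 (-0.0044) with the acinar covariate. With 1 array left out the ranges were -0.29 to 0.099 for Acaca, -0.34 to 0.064 for Elovl6, -0.18 to 0.16 for Fasn, -0.21 to 0.079 for Cpt1a, -0.0052 to 0.063 for Scd1 and -0.041 to 0.082 for Hadha. The cause was not tested. The deviations of arrays with the same replicate number from their group means correlated at r = -0.13, 0.23 and -0.01. So few values cannot decide whether the numbers pair the samples. With the replicate block Scd2 was -0.57, Etfa -0.28, Ehhadh -0.34 and Slc25a1 0.26 (unadjusted limma p of 0.0546), and Cpt1a changed sign to 0.066. Dim probes such as those of Ehhadh, Slc25a20, Scd1 and Ppara have sizes that depend on the offset.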
